A study of Mus musculus with 32 samples.

Results

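The C/EBP transcription factor family was examined in neoplastic cells of mouse lung adenocarcinomas in which *Lkb1* (gene symbol *Stk11*) was intact, disrupted or restored. Its 6 members, *Cebpa*, *Cebpb*, *Cebpd*, *Cebpe*, *Cebpg* and *Ddit3*, were chosen by gene symbol, and 6 of 6 were found among the 53558 genes of the deposited tables. C/EBP proteins are basic leucine zipper transcription factors that bind DNA as dimers. *Cebpa* is known for its part in the differentiation of alveolar type II (ATII) cells, the surfactant-producing cells of the alveolus, *Cebpb* and *Cebpd* are early-response genes of inflammatory signaling, *Cebpe* is a factor of granulocytes, *Cebpg* lacks a transactivation domain, and *Ddit3* (CHOP) is induced by the integrated stress response. Surfactant protein genes such as *Sftpa1* and *Sftpc* are long-known targets of C/EBP factors.

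All mice carried a Cre-activated tdTomato reporter, and tumors were initiated by intratracheal Lenti-Cre. *KT* tumors (4 libraries) have wild-type *Lkb1* and received no treatment. The other mice were *Lkb1XTR/XTR*, in which Cre switches on a gene trap within *Lkb1* that FLPo-ERT2 removes once tamoxifen is given. Restored tumors (7 libraries) carried FLPo-ERT2 and received tamoxifen at 4 mg a dose for 2 weeks. Non-restored tumors (10 libraries) were 4 that received tamoxifen without FLPo-ERT2 and 6 that carried FLPo-ERT2 and received corn oil vehicle. The same pair of states was profiled in *Trp53flox/flox* mice, with 4 restored libraries and 7 non-restored libraries, the latter from 4 animals by their titles, summed by animal and numbered 1 to 4 by animal. The 4 restored libraries carried FLPo-ERT2 and received tamoxifen. Of the 7 non-restored libraries, 5 carried FLPo-ERT2 and received vehicle (animals 1 and 2). The other 2 received tamoxifen without FLPo-ERT2 (animals 3 and 4). Trp53 wild-type tumors grew for 24 to 27 weeks and Trp53-deficient tumors for 16 to 19 weeks, so growth time and *Trp53* cannot be told apart. All restored libraries of both backgrounds came from females, against 7 of 10 non-restored, 2 of 4 *KT* and 4 of 7 Trp53-deficient non-restored libraries. The study names fewer mice than there are libraries for the Trp53 wild-type restored and non-restored groups, so some libraries may share a mouse, and p-values then measure in part the spread within a mouse.

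Library totals ran from 1302482 to 5943951 expected counts over 32 libraries, which gave 29 samples after the summing. *Stk11* had 0 to 2 counts in each non-restored library, 20 to 67 in *KT* and 18 to 130 in restored libraries. Restored tumors exceeded non-restored tumors by 5.38 on the log2 scale (edgeR quasi-likelihood test, adjusted p = 9.83e-10, 7 against 10 libraries). In Trp53-deficient tumors *Stk11* had 0 to 4 counts per non-restored sample and 24 to 67 per restored sample, a log2 difference of 5.15 that ranked first by p but had an adjusted p of 0.0587 over all genes, and that was called in 4 of 7 alternatives (adjusted p = 4.01e-10 by DESeq2). The epithelial markers *Epcam* and *Nkx2-1* were detected in every group (lowest sample 207 and 69.8 CPM, counts scaled to library size). Samples that stood apart were the library non-restored 8 and animal 4 of the Trp53-deficient non-restored group (1 library), with 6465 and 12896 CPM of *Muc5b*, a mucin, while other airway markers were low in them (*Scgb1a1* 3.88 and 9.14 CPM, *Krt5* 0 in both). Restored 1, restored 6 and non-restored 2 had the highest summed level of 16 myeloid markers, 467, 258 and 201 CPM against 11.96 to 65.5 CPM in the other samples, and 46.3, 39.1 and 24.5 CPM of *Ptprc* (CD45). In bulk RNA, fewer cells of a type and less RNA per cell cannot be told apart.

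The members lie on 5 chromosomes of the GRCm38 assembly. *Cebpa* (7:35119293-35121928, plus strand) and *Cebpg* (7:35046422-35056573, minus strand) are neighbours separated by 62719 bases. *Cebpb* (2:167688915-167690418, plus strand) and *Cebpd* (16:15887286-15891031, plus strand) have a single coding exon, *Cebpe* lies at 14:54710360-54712174 on the minus strand, and *Ddit3* at 10:127290774-127296288 on the plus strand. Annotated genes lie on the opposite strand across *Cebpa* (*Gm45091*), *Cebpb* (*Tmem189*), *Cebpd* (*Spidr*), *Cebpg* (*Gm45095*) and *Ddit3* (*Mars*, *Gm4189*), and 2 annotated genes carry the symbol *Ddit3*. The use of strand in counting is not given in the sources used here, so reads of such overlapping genes could not be assigned to one strand.

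The 250 bases before the RefSeq start (GRCm38.p6) were searched on both strands for the C/EBP motif TTGCNNAA, the cAMP response element (CRE) half-site TGACG, the full CRE TGACGTCA, the CCAAT box and the C/EBP-ATF composite element TGATGCAA. The full CRE contains the half-site on both strands. RefSeq promoter windows were matched for 4 of the 6 members, and none was matched for *Cebpd* or *Cebpe*. Of 32851 promoter windows, 9.564% hold the C/EBP motif, 17.77% the CRE half-site, 1.546% the full CRE, 33.85% CCAAT and 0.7915% the composite element. The windows shown are those of *Cebpa*, *Cebpb*, *Sftpa1*, *Lcn2* and *Herpud1*. Over the Trp53 wild-type libraries *Cebpa* was the member with the highest correlations with *Sftpa1* and *Sftpc*. That of *Cebpb* is the member window with CRE half-sites, and *Sftpa1*, *Lcn2* and *Herpud1* are described with the results below. Capitals mark the C/EBP motif, the CRE half-site and the composite element on either strand, and are absent from the *Cebpa* and *Sftpa1* windows.
Cebpa, 7:35119043-35119292, plus strand: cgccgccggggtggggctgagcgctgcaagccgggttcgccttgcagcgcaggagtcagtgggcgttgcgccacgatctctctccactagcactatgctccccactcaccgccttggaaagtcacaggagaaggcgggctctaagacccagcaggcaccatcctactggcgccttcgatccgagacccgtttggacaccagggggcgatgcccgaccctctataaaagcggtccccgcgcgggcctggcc
Cebpb, 2:167688665-167688914, plus strand: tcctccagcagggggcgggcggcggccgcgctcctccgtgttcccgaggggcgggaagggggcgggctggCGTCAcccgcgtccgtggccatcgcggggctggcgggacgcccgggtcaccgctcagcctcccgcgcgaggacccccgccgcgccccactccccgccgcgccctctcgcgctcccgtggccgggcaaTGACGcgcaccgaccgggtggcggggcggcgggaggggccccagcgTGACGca
Sftpa1, 14:41131538-41131787, plus strand: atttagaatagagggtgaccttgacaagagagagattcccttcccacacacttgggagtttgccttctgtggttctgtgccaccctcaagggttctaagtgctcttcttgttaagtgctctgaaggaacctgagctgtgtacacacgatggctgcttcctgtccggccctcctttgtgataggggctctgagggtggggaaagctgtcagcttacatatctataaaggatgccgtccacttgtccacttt
Lcn2, 2:32387740-32387989, minus strand: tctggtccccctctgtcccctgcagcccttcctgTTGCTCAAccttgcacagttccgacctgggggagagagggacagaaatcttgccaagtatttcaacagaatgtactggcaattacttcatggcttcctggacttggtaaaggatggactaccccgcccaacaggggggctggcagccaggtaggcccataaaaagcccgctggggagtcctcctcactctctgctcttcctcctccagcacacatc
Herpud1, 8:94386179-94386428, plus strand: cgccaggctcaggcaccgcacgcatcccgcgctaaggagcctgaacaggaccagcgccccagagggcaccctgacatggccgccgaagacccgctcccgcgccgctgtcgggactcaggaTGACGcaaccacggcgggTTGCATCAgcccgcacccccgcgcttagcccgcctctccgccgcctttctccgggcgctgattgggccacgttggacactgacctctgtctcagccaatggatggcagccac
*Cebpb* holds the CRE half-site 3 times, at -180, -53 and -7 from the start. *Lcn2* holds the C/EBP motif at -216 to -209, and *Herpud1* the CRE half-site at -130 and the composite element at -112 to -105. The windows of *Cebpg* and *Ddit3* hold CCAAT boxes (2 and 1) and none of the other motifs. Windows of *Lyz2*, *Sftpb*, *Il6ra* and *Stk11* were searched as well and are not shown. None of them holds the C/EBP motif or the composite element. *Sftpb*, *Il6ra* and *Stk11* hold the CRE half-site, and *Lyz2* holds none of the motifs. A match is a match of letters in this window and does not show that a factor binds.

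*Cebpa* had the highest mean of the members on the length-corrected scale in every group but Trp53-deficient non-restored tumors, where *Cebpg* was slightly higher. *Cebpe* was not detected. Mean transcript abundances (TPM) of *Cebpa* were 70.2 in *KT*, 63.4 in non-restored and 83.1 in restored tumors, and 45.6 and 59.0 in Trp53-deficient non-restored and restored tumors. Group means of *Cebpg* were 39.6 to 47.1 TPM (46.5 in Trp53-deficient non-restored tumors). Those of *Cebpd* were 17.4 to 25.1 TPM, of *Ddit3* 9.50 to 14.3 TPM and of *Cebpb* 3.58 to 5.64 TPM. *Cebpa* was above *Cebpg* in 25 of 29 samples, and the exceptions were 1 non-restored library and 3 of the 4 Trp53-deficient non-restored samples. *Cebpg* exceeded *Cebpd* in 29 of 29 samples, *Cebpd* exceeded *Ddit3* in 27 of 29, and *Ddit3* exceeded *Cebpb* in 29 of 29. *Cebpe* had 0 counts in each of the 29 samples, which allows up to 0.385 to 2.50 CPM in a sample (3 counts of its library size, counting error only).

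**Figure D1:**
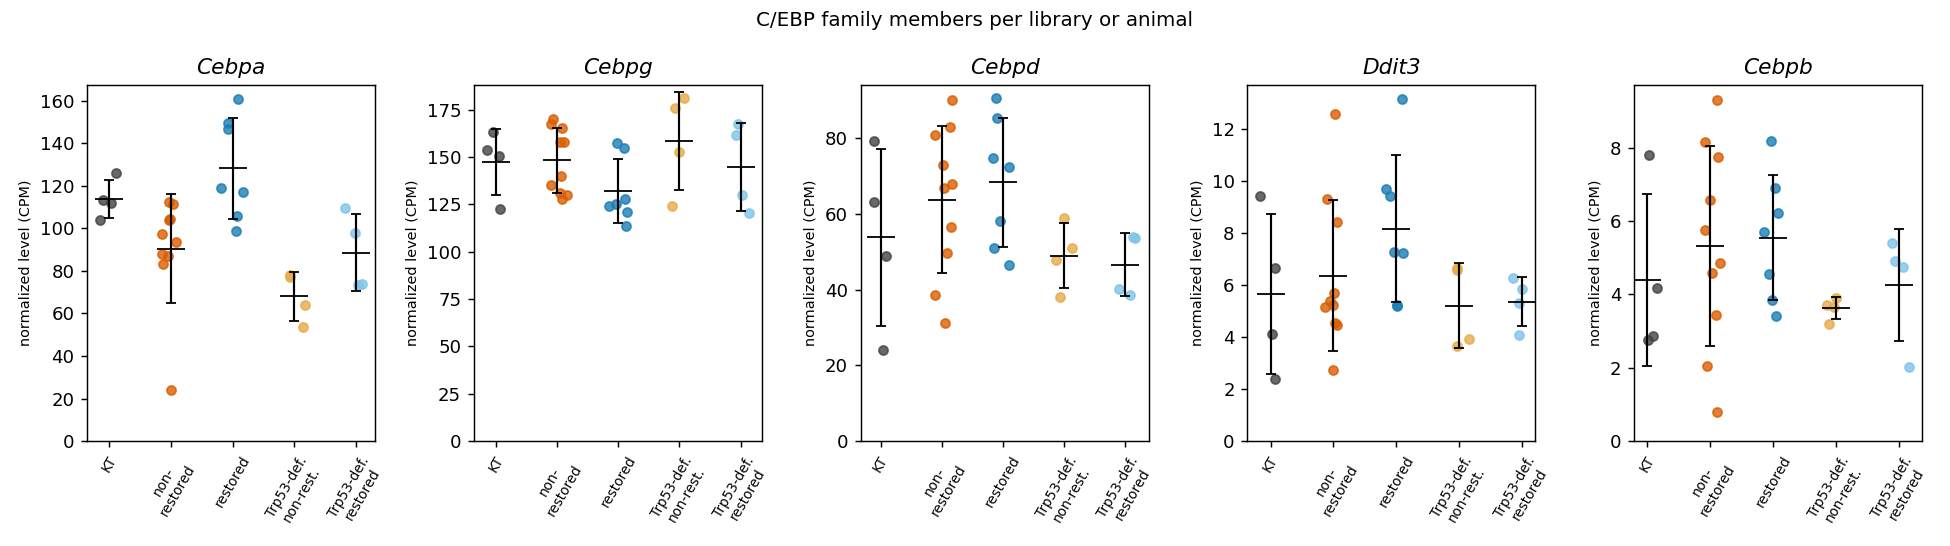
Level of 5 C/EBP members in each sample of the 5 groups (vertical axes, normalized CPM on a linear scale from 0; points are samples, horizontal marks the group means and error bars the SD). *Cebpa* spans 23.9 to 160.5 CPM, with the lowest point being non-restored 8. For *Cebpa* the Trp53-deficient non-restored samples (53.4 to 77.8 CPM) lie below the *KT* (from 104.0 CPM) and restored (from 98.6 CPM) libraries, pairs of groups that were not tested.

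*Cebpa*, which encodes C/EBPα, was highest on average in restored tumors and lowest in Trp53-deficient non-restored tumors. The 4 *KT* libraries had 104.0, 113.3, 125.8 and 111.7 CPM. The 10 non-restored libraries ran from 23.9 (non-restored 8) through a median of 95.2 to 112 CPM, and the 7 restored libraries from 98.6 through 119 to 160.5 CPM. The 4 Trp53-deficient non-restored samples had 64.0, 77.8, 76.9 and 53.4 CPM, and the 4 restored ones 73.5, 97.7, 73.6 and 109.6 CPM. Ordered by mean, the groups were restored, *KT*, non-restored, Trp53-deficient restored and Trp53-deficient non-restored, and each neighbouring pair of groups overlapped. The Trp53-deficient non-restored samples did not overlap *KT* or restored libraries, but these pairs of groups were not tested. The share of all genes without overlap in these pairs was not counted. The groups of each pair differ in *Lkb1* state, *Trp53* and growth time together. Libraries of 1 Trp53-deficient non-restored animal, sequenced as 3, ran from 49.7 to 91.7 CPM of *Cebpa*, a 1.85-fold spread.

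The comparison of restored with non-restored tumors addresses the effect of returning *Lkb1* expression to established tumors. *Cebpa* averaged 128 ± 23.8 CPM (SD, n = 7) in restored and 90.5 ± 25.5 CPM (SD, n = 10) in non-restored tumors. The log2 difference was 0.49 with an SE of 0.19 (95% interval 0.09 to 0.90; edgeR quasi-likelihood test, unadjusted p = 0.0186, adjusted p = 0.216), so *Cebpa* was not called at 0.05 over all genes. Without non-restored 8 the difference was 0.38 (adjusted p = 0.0566), and the other 9 non-restored libraries averaged 97.9 ± 10.8 CPM. Restored 1 and restored 6, which had the high myeloid marker sums, were among the 3 restored libraries of highest *Cebpa* (160.5 and 146.5 CPM). Without the 3 libraries of highest myeloid markers, an alternative chosen after seeing the data, the difference was 0.40 (adjusted p = 0.549), with *Cebpa* at 118 ± 19.4 CPM in 5 restored and 89.0 ± 26.6 CPM in 9 non-restored libraries. A part of myeloid cells in the *Cebpa* level was not tested. With female libraries alone the difference was 0.64 (adjusted p = 0.194), with the vehicle arm as control 0.41 (adjusted p = 0.101) and with the tamoxifen arm as control 0.64 (adjusted p = 0.385).

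No other member passed the test in this comparison either. Of the 5 members tested, 0 were called, against 1.87% of the 12636 genes tested (236 genes). By an unadjusted p under 0.05 there was 1 member, *Cebpa*, and 1913 of all genes. The median log2 difference of the 5 members was 0.09 against -0.01 over all genes tested, and 4 of 5 were above 0. *Cebpg* was the member below 0, with 128, 149 and 169.9 CPM (lowest, median, highest) in non-restored and 114, 125 and 157 CPM in restored libraries. Its ranges overlap, and its log2 difference was -0.18 (95% interval -0.37 to 0.02, adjusted p = 0.393). *Cebpd* had 31.2, 67.3 and 90.0 CPM in non-restored and 46.4, 72.4 and 90.7 CPM in restored libraries, a log2 difference of 0.09 (95% interval -0.37 to 0.55, adjusted p = 0.899). *Ddit3* (2.74 to 12.6 CPM in non-restored, 5.20 to 13.1 CPM in restored) and *Cebpb* (0.80 to 9.28 and 3.42 to 8.19 CPM) rested on few counts. *Ddit3* had 5 to 76 and *Cebpb* 2 to 37 counts in a sample, and the intervals of their log2 differences, -0.26 to 0.96 and -0.66 to 0.79, include both directions. DESeq2 also called 0 members and gave *Cebpa* an adjusted p of 0.180.

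**Figure D2:**
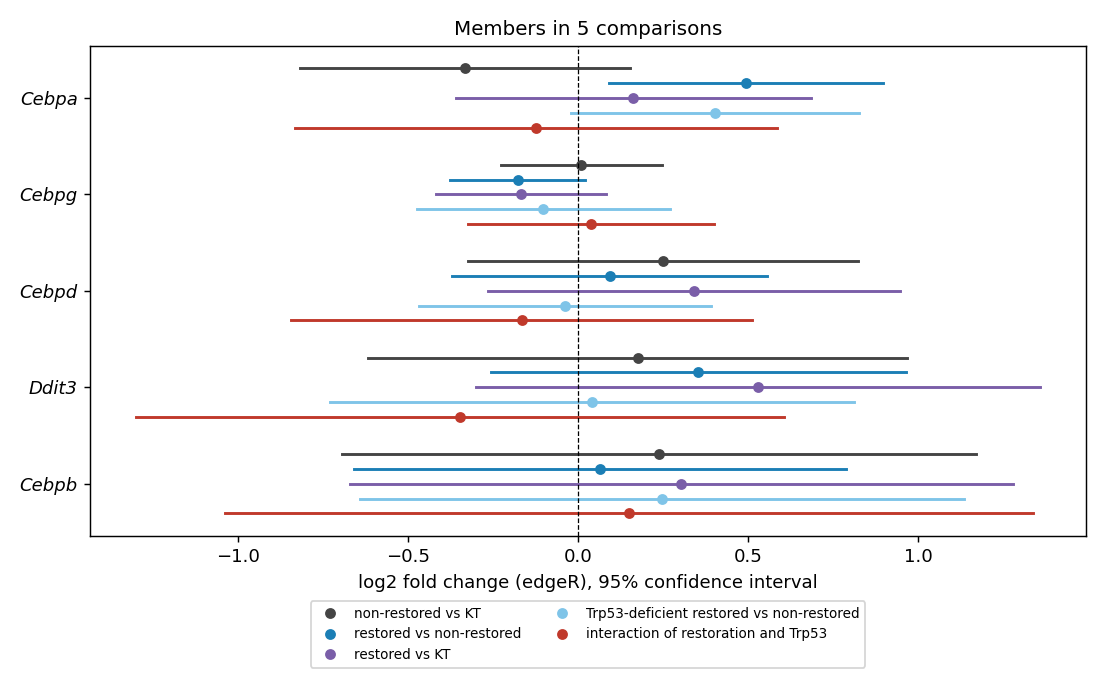
Log2 differences of the 5 tested members in 5 comparisons (horizontal axis, log2 fold change by edgeR; points are estimates and bars 95% intervals, colored by comparison). The interval of *Cebpa* lies above 0 for restored against non-restored tumors (0.09 to 0.90) in the Trp53 wild-type background, and no member passes the adjusted threshold in any comparison shown.

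Non-restored tumors were compared with *KT* for the effect of disrupted *Lkb1*, and restored tumors with *KT* for how far restored and intact tumors differ. These comparisons share libraries with each other and with the one above, so their results are not independent. Non-restored against *KT* called 0 of 5 members, where 5.86% of the 12636 genes were called (741 genes, and 2626 at an unadjusted p under 0.05). Restored against *KT* called 0 of 5 members, where 0.459% of genes were called (58 genes, and 1333 at an unadjusted p under 0.05). *Cebpa* differed by -0.33 on the log2 scale between non-restored and *KT* tumors (95% interval -0.82 to 0.15, adjusted p = 0.447) and by 0.16 between restored and *KT* (-0.36 to 0.68, adjusted p = 0.885). *KT* averaged 114 ± 9.07 CPM (SD, n = 4). *Cebpd* was lowest in *KT* library 1 (24.1 CPM) and 79.1, 63.1 and 48.9 CPM in the other *KT* libraries, and these overlap the ranges of the non-restored and restored libraries. Median log2 differences over the 5 members were 0.17 (all genes 0.03) for non-restored against *KT* and 0.30 (all genes 0.01) for restored against *KT*, and 4 of 5 members were above 0 in each.

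In Trp53-deficient tumors restoration again left the members without a call. The counts were 0 of 5 members and 0% of 12516 genes (748 genes at an unadjusted p under 0.05; DESeq2 called 23 genes and 0 members). *Cebpa* averaged 88.6 ± 18.01 CPM in restored and 68.0 ± 11.6 CPM in non-restored samples (SD, n = 4 each), a log2 difference of 0.40 (95% interval -0.02 to 0.83, unadjusted p = 0.0606, adjusted p = 0.804 by edgeR). Animal 4 of the Trp53-deficient non-restored group, with the high *Muc5b*, had the lowest *Cebpa* of the 4. The test of whether the restoration difference itself depended on *Trp53* called 0 of 5 members and 0% of 13706 genes (422 genes at an unadjusted p under 0.05; DESeq2 called 0 genes). The *Cebpa* interaction was -0.12 on the log2 scale, with an interval of -0.83 to 0.58 that includes differences in either direction larger than the restoration effect itself.

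*Cebpa*, *Cebpb*, *Cebpd* and *Ddit3* were lower on average without *Trp53* in both *Lkb1* states. Among non-restored tumors, 0.584% of the 13706 genes were called (80 genes, 2430 at an unadjusted p under 0.05) and 0 of 5 members. Among restored tumors 0.372% were called (51 genes, 2121 at an unadjusted p under 0.05) and 0 of 5 members. In restored tumors *Cebpd* differed by -0.55 (95% interval -1.05 to -0.04, adjusted p = 0.290 by edgeR) and *Cebpa* by -0.52 (-1.05 to 0.00, adjusted p = 0.322), the 2 members with an unadjusted p under 0.05. *Ddit3* differed by -0.62 and *Cebpb* by -0.39 in restored tumors (adjusted p = 0.377 and 0.674 by edgeR). Their differences in non-restored tumors were -0.27 and -0.54 (adjusted p = 0.681 and 0.487 by edgeR). In non-restored tumors *Cebpa* differed by -0.40 (-0.90 to 0.10, adjusted p = 0.381) and *Cebpd* by -0.38 (adjusted p = 0.382). Without non-restored 8 the *Cebpa* difference became -0.52 with an adjusted p of 0.0247, in a fit that called 10.8% of 13429 genes (1448 genes). It was the one change of a member's call when a single sample was left out. The *Cebpd* samples were 51.0, 47.9, 38.0 and 58.9 CPM in Trp53-deficient non-restored and 53.9, 53.7, 38.6 and 40.2 CPM in Trp53-deficient restored tumors. The Trp53 wild-type non-restored libraries ran from 31.2 to 90.0 CPM, a range that holds the Trp53-deficient non-restored values. The Trp53 wild-type restored libraries ran from 46.4 to 90.7 CPM, and the Trp53-deficient restored values of 38.6 and 40.2 CPM lie below that range. The members' median log2 difference was -0.38 in non-restored and -0.52 in restored tumors (all genes -0.02 and 0.00), and 1 of 5 members, *Cebpg*, was above 0 in each.

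The pooled non-restored libraries held a tamoxifen arm without FLPo-ERT2 and a vehicle arm with it. The arms differed in 0 of 5 members and in 0% of 11561 genes by edgeR (378 genes at an unadjusted p under 0.05; DESeq2 called 11 genes). *Cebpa* averaged 81.8 ± 40.0 CPM in the tamoxifen arm (SD, n = 4), which holds non-restored 8, and 96.3 ± 10.5 CPM in the vehicle arm (n = 6). Treatment and FLPo-ERT2 cannot be told apart here.

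The surfactant genes were read in the same samples. *Sftpa1*, surfactant protein A, averaged 21160 CPM in restored tumors, 20297 in *KT* and 8995 in non-restored tumors, and the Trp53-deficient groups had 10199 (restored) and 3374 CPM (non-restored). *Sftpc*, surfactant protein C, averaged 34075, 29473, 21425, 17869 and 6732 CPM in the same order. Non-restored 8 was the lowest Trp53 wild-type library for *Cebpa* and had 553 CPM of *Sftpa1* and 1458 CPM of *Sftpc*.

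Over the 21 Trp53 wild-type libraries *Cebpa* varied with *Sftpa1*, *Sftpc* and *Sftpd*, on log2 CPM with two-sided permutation tests over 40 relations. For *Sftpa1* Pearson's r was 0.912 and Spearman's rho 0.868 (Benjamini-Hochberg adjusted permutation p = 0.0004 for both, from the smallest p of 1e-05 that the permutations can give). For *Sftpc* r was 0.897 (adjusted p = 0.0008) and rho 0.756 (adjusted p = 0.0034), and for *Sftpd* r was 0.886 (adjusted p = 0.0052) and rho 0.626 (adjusted p = 0.0397). Without non-restored 8 and restored 1, the libraries farthest from the median of *Cebpa*, r was 0.792, 0.624 and 0.565. With *Sftpb* r was 0.544 and rho 0.026, and r was -0.170 without those libraries. Without non-restored 8 alone, the *Sftpa1* relation passed by both measures, *Sftpc* no longer passed by r (0.617, adjusted p = 0.0560) and *Sftpd* passed by neither (r = 0.509, adjusted p = 0.0807). On log2(TPM + 1), rho with *Sftpc* and *Sftpd* did not pass (adjusted p = 0.204 and 0.238). The call of rho with *Sftpd* was also lost with most single libraries left out. Its adjusted permutation p ran from 0.008 (without non-restored 7) to 0.156 (without non-restored 4), and was 0.192 with female libraries alone.

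The libraries pool 3 groups that differ in mean, so the relation was also computed within groups. In the 10 non-restored libraries r of *Cebpa* was 0.916 with *Sftpc*, 0.919 with *Sftpa1* and 0.931 with *Sftpd*, and 0.258, 0.427 and 0.199 without non-restored 8 and 9. With a single library left out, r ran from 0.360 to 0.948 with *Sftpc*, 0.532 to 0.948 with *Sftpa1* and 0.221 to 0.961 with *Sftpd*. The size of r in non-restored libraries therefore depends on single libraries. With *Sftpb* r of *Cebpa* was 0.636 over the 10 and -0.748 without non-restored 8 and 9 (rho = -0.321 and -0.810). In the 7 restored libraries alone, an alternative chosen after seeing the data, *Cebpa* and *Sftpa1* gave r = 0.752 and rho = 0.536 (exact permutation p = 0.0470 for r, adjusted p = 0.470 over 20 relations). *Cebpa* and *Sftpb* gave r = -0.788 and rho = -0.607 there, the opposite sign (exact permutation p = 0.0458 for r, adjusted p = 0.470), and 0 of 20 relations passed after adjustment. Leaving out the 3 libraries of highest myeloid markers left r at 0.910 with *Sftpa1* over 18 libraries. The *KT* group, with 4 libraries, is too small for a correlation.

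**Figure D3:**
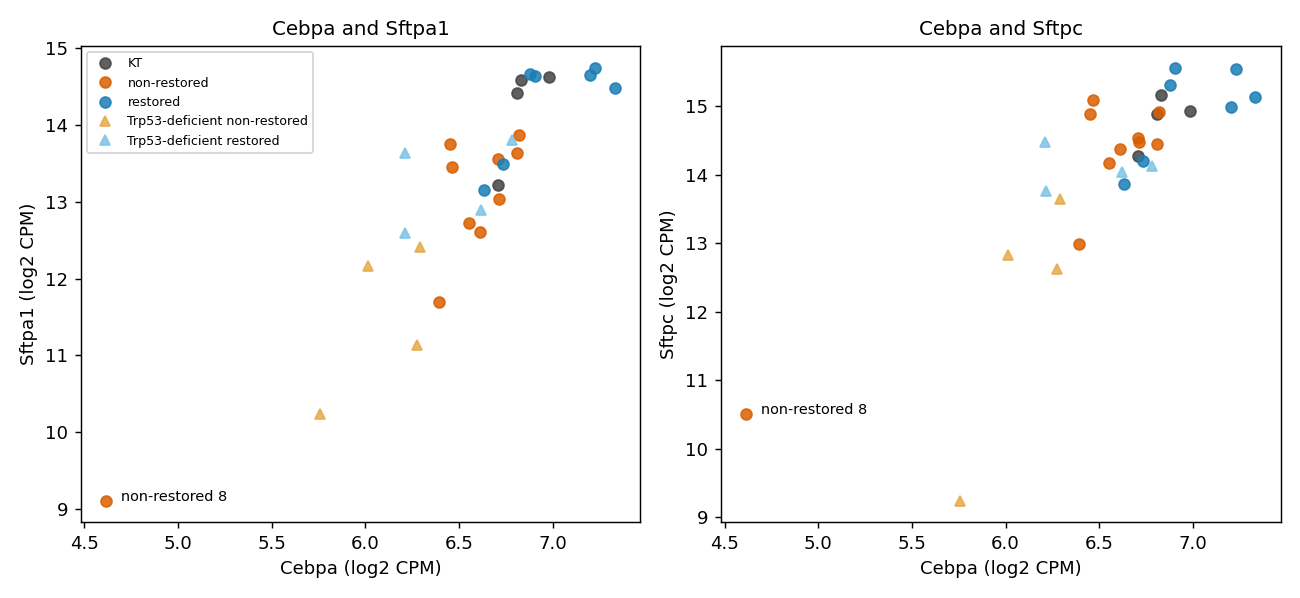
*Cebpa* (horizontal axes) against *Sftpa1* and *Sftpc* (vertical axes), all in log2 CPM, in the 21 Trp53 wild-type libraries (circles) and the 8 Trp53-deficient samples (triangles), colored by group. Non-restored 8 is lowest for *Cebpa* and *Sftpa1*, a Trp53-deficient non-restored sample is lowest for *Sftpc*, and over the 21 libraries r between *Cebpa* and *Sftpa1* is 0.912 with it and restored 1 and 0.792 without them.

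For the other members, 0 relations passed by both measures with every library kept. *Cebpd* passed by Pearson's r with *Sftpc*, *Sftpa1* and *Sftpd* (r = 0.606, 0.564 and 0.628) but with 0 genes by rho. In the 10 non-restored libraries it passed by r with the same genes (0.845, 0.856 and 0.849). The adjusted permutation p was 0.0135, 0.0125 and 0.00387, and 0 passed by rho. *Cebpa* passed there by r with *Sftpa1* alone (adjusted permutation p = 0.0336). With a single library left out, r of *Cebpd* ran from 0.756 to 0.884, 0.761 to 0.904 and 0.840 to 0.889. The adjusted p then rose to 0.0807 at most. Without non-restored 4 and 8 r was 0.360, 0.459 and 0.663. Over the 21 libraries *Cebpb* had r between -0.05 and 0.55, *Ddit3* between 0.38 and 0.44, and *Cebpg* between -0.21 and 0.04, none of which passed. Within the 10 non-restored libraries r lay between -0.05 and 0.67 for *Cebpb*, 0.50 and 0.70 for *Ddit3*, and -0.42 and 0.09 for *Cebpg*. None of these passed either. Whether *Cebpa* differed from these members in its correlation was not tested. Correlations of the members with library total lay between -0.27 and 0.39.

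**Figure D4:**
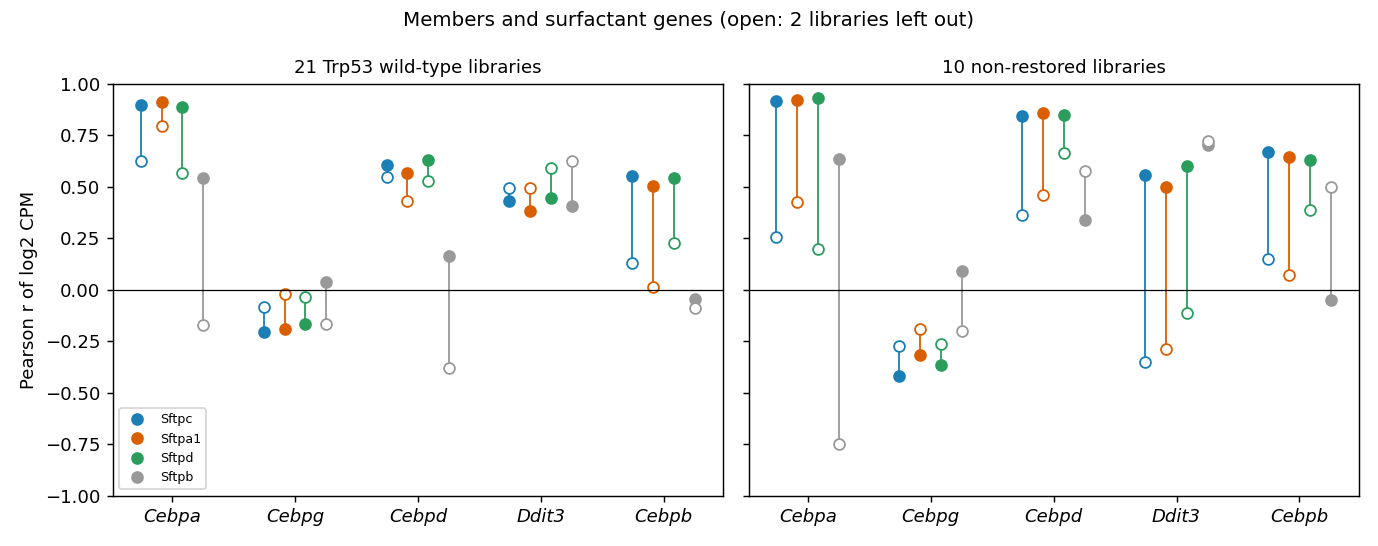
Pearson's r of each member with 4 surfactant genes over the 21 Trp53 wild-type libraries and within the 10 non-restored libraries, filled with every library and open without the 2 farthest from the median of the member. For *Cebpa* and *Sftpa1*, r is 0.912 over 21 libraries, 0.919 within the non-restored libraries, and 0.427 within them after leaving out non-restored 8 and 9.

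By the rank correlation over the 21 libraries and 12636 genes, the genes most like *Cebpa* were *Abhd5*, a lipid-droplet cofactor (rho = 0.891), *Pcyt1a*, an enzyme of phosphatidylcholine synthesis (0.881), and *Oxct1*, an enzyme of ketone body use (0.874). *Sftpa1* ranked at 5, *Lyz2* at 11, *Sftpc* at 105, *Sftpd* at 428 and *Sftpb* at 6059. *Cebpb* was most like *Tcirg1* (0.858), *Ier2* (0.851) and *Mau2* (0.825), and *Cebpd*, its rank 4, had rho 0.822 with it. *Cebpd* was most like *Irx1* (0.855), *Eif4a2* (0.844) and *Rnf19b* (0.834). *Cebpg* was most like *Gm26718* (0.866), *Pik3c2a* (0.791) and *Ppp3r1* (0.783), and *Ddit3* like *Ddhd2* (0.835), *Ppp1r15a* (0.792) and *Rbbp8* (0.766). These are the highest of many correlations in the same libraries and are descriptions without a test.

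Genes connected to the family were read from lists of ATII genes, basic leucine zipper partners, C/EBP regulators, signaling genes upstream of *Cebpb* and *Cebpd*, acute-phase targets, integrated stress response genes and genes of tissue dissociation. Between restored and non-restored tumors the ATII list had 1 of 18 genes called, with 16 above 0 and a median of 0.60 against -0.01 over all genes. Of the 16 myeloid markers, 7 passed the filter on low counts, and these had 7 above 0 with a median of 1.03, 0 called and 3 at an unadjusted p under 0.05 by edgeR. Their part in the ATII values was not tested. The called ATII gene, *Lyz2* (lysozyme 2), had 590, 5713 and 10980 CPM in non-restored and 5905, 23607 and 31469 CPM in restored libraries, a log2 difference of 1.83 (edgeR, adjusted p = 0.0313). Its ranges overlap. Over the alternatives the difference stayed at 1.51 to 2.20, while the call was lost in 4 of 12. Among these were the tamoxifen arm as control (adjusted p = 0.345) and the fit without the 3 libraries of highest myeloid markers (adjusted p = 0.133). The call was also lost without any one of 8 single libraries (adjusted p up to 0.0710).

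Of the upstream signaling genes, *Sik1*, a salt-inducible kinase downstream of LKB1 that restrains CRTC coactivators of CREB, was the 1 gene of 16 called, at 85.2 to 203 CPM in non-restored and 60.1 to 85.8 CPM in restored libraries (log2 difference -0.85, adjusted p = 0.0133 by edgeR). Of the stress response genes, *Herpud1*, a gene of endoplasmic reticulum protein degradation whose promoter window is shown above, was the 1 of 18 called. It had 70.9 to 144 CPM in non-restored and 149 to 275 CPM in restored libraries, which do not overlap (log2 difference 0.73, adjusted p = 0.0258 by edgeR). The *Herpud1* call was lost without restored 2, 3 or 7 (adjusted p up to 0.0734). Both calls were lost with the tamoxifen arm as control (adjusted p = 0.0897 for *Sik1* and 0.229 for *Herpud1*) and without the 3 libraries of highest myeloid markers (0.0660 and 0.0613). Of 12 alternatives, 2 lost the call of *Sik1* and 3 that of *Herpud1*. Over the alternatives the differences stayed at -0.92 to -0.72 for *Sik1* and 0.67 to 0.85 for *Herpud1*.

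No gene was called of 10 basic leucine zipper partners (median 0.34), 13 regulators (0.02), 12 acute-phase targets (0.22) or 16 dissociation genes (0.33, with 13 above 0). The smallest p of each list belonged to *Jun* (log2 difference 0.72, adjusted p = 0.183 by edgeR), *Id2* (0.95, adjusted p = 0.125) and *Cxcl2* (2.21, adjusted p = 0.152), with *Jun* also first among the dissociation genes.

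Against *KT*, non-restored tumors had lower *Il6ra*, an interleukin-6 receptor chain (10.8 to 36.9 CPM in *KT* and 2.58 to 10.3 CPM in non-restored, log2 difference -2.01, adjusted p = 0.000496 by edgeR). *Lcn2*, lipocalin 2, whose window holds a C/EBP motif, was 1261 to 3117 CPM in *KT* and 155 to 879 CPM in non-restored libraries (-1.74, adjusted p = 0.00159 by edgeR). Neither pair of ranges overlaps. The other called genes were *Lyz2* (-1.73, adjusted p = 0.0431), *Cdk4* (-0.44, adjusted p = 0.0457), *Sik1* (0.99, adjusted p = 0.0112) and *Dusp1* (1.14, adjusted p = 0.0226), all by edgeR. These 4 calls were lost with female libraries alone (adjusted p = 0.121, 0.159, 0.248 and 0.457) and without single libraries (adjusted p up to 0.126, 0.158, 0.0560 and 0.0915). Of 12 alternatives, 5 lost the call of *Lyz2*, 9 that of *Cdk4*, 1 that of *Sik1* and 4 that of *Dusp1*. Of 21 fits with a single library left out, 13, 13, 1 and 2 lost it, in the same order. The called genes were 1 of 18 ATII genes, 1 of 13 regulators, 2 of 16 upstream signaling genes, 1 of 12 acute-phase targets, 1 of 16 dissociation genes and 0 of 10 partners and of 18 stress response genes. With female libraries alone *Il6ra* had an adjusted p of 0.247. Of the partners and the stress response genes, the smallest p belonged to *Fos* (1.06, adjusted p = 0.0998 by edgeR) and *Herpud1* (-0.58, adjusted p = 0.0991). *Foxa2*, an epithelial marker, was also called (0.49, adjusted p = 0.0372 by edgeR). That call was lost in 6 of 12 alternatives, female libraries alone among them, and in 7 of 21 fits with a single library left out. Of the listed genes, 0 were called between restored and *KT* tumors, in the Trp53-deficient restoration comparison, in the interaction, in the arms or between Trp53-deficient and wild-type restored tumors. For restored against *KT* the smallest p of each list belonged to *Scd1* (log2 difference 1.00, adjusted p = 0.541 by edgeR), *Fos* (1.31, 0.171), *Cdk4* (-0.44, 0.195), *Il6ra* (-1.08, 0.2004), *Lcn2* (-1.07, 0.205) and *Ddit4* (1.05, 0.176).

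Between Trp53-deficient and wild-type non-restored tumors 1 of 19 stress response genes was called. *Sesn2*, a stress response gene and known p53 target, was 7.98 to 33.2 CPM in non-restored and 6.40 to 10.8 CPM in Trp53-deficient non-restored tumors (log2 difference -1.35, adjusted p = 0.0350 by edgeR, up to 0.183 without a single sample and 0.267 in females). The other lists had 0 called there, and their smallest p belonged to *Lyz2* (log2 difference -3.03, adjusted p = 0.0592 by edgeR), *Atf3* (0.59, 0.285), *Eif4ebp1* (0.81, 0.103), *Myd88* (-0.28, 0.270), *Itih4* (-1.89, 0.121) and *Zfp36* (0.80, 0.0617). Of these, *Lyz2* was called in 4 of 8 alternatives, *Zfp36* in 3 and *Itih4* in 2. Between restored tumors of both backgrounds they were *Herpud1* (-0.85, adjusted p = 0.0573 by edgeR), *Lyz2* (-2.54, 0.134), *Myd88* (-0.47, 0.132), *Ptgs2* (1.29, 0.177), *Jun* (-0.76, 0.201) and *Fbxw7* (-0.62, 0.258). *Herpud1* was called in 5 of 8 alternatives (adjusted p from 0.00573 to 0.107) and *Lyz2* in 2 of 8. In Trp53-deficient tumors all 18 ATII genes were above 0 (median 0.74) on restoration without a call, and 1 of 16 dissociation genes was above 0 (median -0.36). Of the myeloid markers 3 passed the filter there, with 1 above 0 (median -0.18). The smallest p of each list there belonged to *Cxcl15* (1.49), *Dbp* (1.35), *Id2* (0.75), *Sik1* (-0.83), *Slpi* (-1.13), *Hspa5* (-0.47) and *Nr4a1* (-0.86), each with an adjusted p of 0.804 by edgeR. In the interaction these were *Scd1* (0.76), *Junb* (-0.73), *Fbxw7* (-0.86), *Il1r1* (0.36), *Cxcl2* (-2.44), *Herpud1* (-0.69) and *Egr1* (-0.80), and between the arms *Sftpb* (-0.59), *Tef* (-1.06), *Id1* (-0.74), *Nr3c1* (-0.23), *Hp* (-0.84), *Asns* (1.01) and *Egr1* (-0.57), each with an adjusted p of 1.00.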

How the data were processed

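Neoplastic cells were sorted from microdissected, dissociated tumors after exclusion of CD45, CD31, F4/80 and Ter119 positive cells. Ribosomal RNA was depleted before sequencing, from low RNA input. The authors aligned reads to mm10 with STAR 2.6.1d in 2-pass mode and estimated gene abundance with RSEM 1.2.30. The deposited expected counts are gene-level RSEM estimates without normalization, of which 5.57% of a library's values on average were not whole, and all were rounded here. In the deposited TPM values, RSEM accounts for effective length and depth. The deposited effective length values of RSEM were used as offsets in an alternative. The authors' own comparison tables hold log2 fold changes and p-values from DESeq2 1.26.0 and were not used.

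Groups followed the cohort labels, and libraries that share an animal by title were summed. Counts were tested with edgeR 4.0.16 (R 4.3.3; TMM, filterByExpr, robust quasi-likelihood test, Benjamini-Hochberg adjustment over all genes tested, threshold 0.05). One fit held the 21 Trp53 wild-type libraries, and others the 8 Trp53-deficient samples, the 25 samples of the 4 *Lkb1XTR/XTR* groups and the 10 non-restored libraries. CPM used TMM library sizes over 29 samples. Correlations used log2 CPM with 100000 permutations (10000 where a library was left out). DESeq2 1.42.0 and other filters, offsets, arms and left-out libraries were alternatives. The gene-wise script was tested on simulated counts, where the share of false calls in the Trp53-deficient and interaction fits exceeded the adjusted threshold, and the limit accepted for that share was raised after it was seen. Named genes were the members, *Stk11*, the surfactant genes, the 3 genes most like each member, and of each list the called genes, or, where none was called, the one of smallest p. Members and lists were chosen with earlier results of these data known. Counting error at low counts limits *Cebpb*, *Ddit3* and *Stk11* most.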

Additional observations from a re-analysis of the deposited data

Results flagged for a closer look

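*Cebpa* in non-restored 8 was 23.9 CPM, far below the other 9 non-restored libraries (83.4 to 112 CPM), and its gap to the nearest exceeded the 95% critical value of Dixon's test. Among 45 groups tested this was the 1 found, and chance gives about 1 in 20. The same library had 31.2 CPM of *Cebpd*, 158 of *Cebpg*, 553 of *Sftpa1*, 1458 of *Sftpc* and 590 of *Lyz2*. It also had 69.8 CPM of *Nkx2-1*, 524 of *Epcam*, 6465 of *Muc5b* and 9.81 of *Hmga2*. Which of these values bears on the *Cebpa* level was not tested.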

How the results depend on the processing

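The 15 pairs of libraries with the same replicate number had correlations of -0.05 to 0.47 of their deviations from the group means (median 0.07, 6 over 0.1). Of 18 libraries with a partner, 2 were most like their own number. Each pair joins libraries of different groups, so these values cannot show whether libraries of the same group share a mouse. With the replicate number as a block, 1 member was called between restored and non-restored tumors (*Cebpa*, 0.43, edgeR adjusted p = 0.0471), and 270, 705 and 67 genes were called for restored against non-restored, non-restored against *KT* and restored against *KT*. No other alternative that kept every library gave a member call. With single samples left out the members called were 0 to 1 among non-restored tumors by *Trp53*, with 1 without non-restored 8. Of the members' smaller differences, signs turned in some settings. With females alone *Cebpb* was -0.29 and *Cebpd* -0.21 (non-restored against *KT*), -0.14 and -0.053 (restored against *KT*) and -0.31 and -0.033 (arms), *Cebpg* was -0.12 against *KT* and -0.048 in the interaction, and *Ddit3* -0.22 against *KT*. Without the units of highest airway markers, chosen after seeing the data, *Cebpa* was 0.065 between the arms, *Cebpb* -0.036 on restoration, *Cebpd* 0.0099 in the interaction and 0.028 on Trp53-deficient restoration, *Cebpg* -0.00485 for non-restored against *KT* and *Ddit3* -0.11 on Trp53-deficient restoration. For non-restored against *KT*, *Cebpg* was -0.029 with the vehicle arm and -0.012 without the 3 libraries of highest myeloid markers, and *Ddit3* -0.046 with the tamoxifen arm. *Ddit3* was -0.10 on Trp53-deficient restoration with each library as a sample. Leaving out single samples gave -0.44 to 0.065 for *Cebpa*, -0.18 to 0.33 for *Cebpb* and -0.15 to 0.28 for *Cebpd* between the arms, -0.054 to 0.19 for *Cebpb* on restoration, -0.15 to 0.038 for *Cebpd* and -0.11 to 0.18 for *Ddit3* on Trp53-deficient restoration, -0.061 to 0.12 for the *Cebpg* interaction, and -0.063 to 0.056 for *Cebpg* and -0.095 to 0.59 for *Ddit3* in non-restored against *KT*. Counted over all members, 3 relations with surfactant genes passed by both measures, all of *Cebpa*. The count became 1 on log2(TPM + 1), 0 of 20 in the restored libraries alone and 2 in females. With a library left out it ran from 1 (without non-restored 8) to 7 (without non-restored 5), and those 7 were not all of *Cebpa*. Correlations that did not pass also turned sign. *Cebpb* with *Sftpb* was 0.067 in females and 0.023 on log2(TPM + 1) over the Trp53 wild-type libraries, and 0.011 and 0.037 in non-restored libraries. With single libraries left out, r with *Sftpb* ran from -0.28 to 0.66 (*Cebpa*), -0.43 to 0.32 (*Cebpb*), -0.22 to 0.32 (*Cebpd*) and -0.12 to 0.26 (*Cebpg*) over the Trp53 wild-type libraries, and from -0.76 to 0.81, -0.59 to 0.81, -0.38 to 0.88 and -0.25 to 0.41 in non-restored libraries, where *Ddit3* with *Sftpa1* ran from -0.084 to 0.62. *Cebpg* with *Sftpd* ran from -0.24 to 0.0046 over the Trp53 wild-type libraries. Genes called over all went from 236 to 467 by DESeq2 and 50 with the tamoxifen arm (restored against non-restored), from 741 to 132 in females and 280 with the tamoxifen arm (non-restored against *KT*), from 58 to 20 with at least 10 counts, 168 by DESeq2 and 10 in females (restored against *KT*), from 80 to 412 by DESeq2, 465 with each library as a sample and 43 in females (*Trp53*, non-restored), and from 51 to 216 by DESeq2 (*Trp53*, restored). For Trp53-deficient restoration, 0 became 23 by DESeq2, 3 without a filter and 1 with each library as a sample or effective-length offsets. Without single samples these counts ran from 145 to 319, 340 to 951, 21 to 96, 26 to 1448 and 25 to 153, and from 0 to 1 for Trp53-deficient restoration and the interaction. The cause of these changes was not tested. At 2 to 37 counts of *Cebpb* and 5 to 76 of *Ddit3* a sample, counting error limits both members.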
